A study of Homo sapiens with 12 samples.

Results

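The genes described here are targets and regulators of the transcription factor ATF4 that serve amino acid transport and synthesis. They were listed by symbol as 37 named genes, with earlier results of these data known. All 37 were found among the 60617 Ensembl gene identifiers of the tables. By role they were 4 regulators, 4 outputs of the stress response, 13 transporters, 8 genes of serine and one-carbon metabolism, 2 of proline synthesis, 4 of glutamine, asparagine and transamination, and 2 of transsulfuration. All 37 passed the filter on low counts and were among the 21581 genes tested. The lowest estimated count of any of them in any library was 34.2.

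RNA was sequenced from A549, an established human lung adenocarcinoma cell line, 24 hours after siRNA transfection. Cells with the control siRNA (siCo, labelled NTC in the treatment field) were compared with cells given 1 of 2 siRNA mixtures that target YAP1 and WWTR1, the latter encoding TAZ. These combinations are named siYAP/TAZ#1 and siYAP/TAZ#2, and each group held 4 libraries that the series describes as biological replicates. All groups were 1 line in the same serum-containing medium, and the members of each combination are not given by name, so effects of single siRNAs cannot be told apart.

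YAP and TAZ are transcriptional coactivators that the Hippo kinases restrain and that act on DNA through TEAD factors. ATF4 is made mainly when phosphorylation of the translation factor eIF2α, by kinases that sense missing amino acids or misfolded protein, lets ribosomes reach its reading frame. It then dimerises with C/EBP proteins on amino acid response elements and raises genes that import amino acids, synthesise serine, glycine, proline and asparagine, charge tRNAs and restrain mTORC1. In lung cancer cells this programme is known for keeping growing cells supplied with serine, glutamine and cystine. Because ATF4 is set largely by translation, its mRNA is only a part of its regulation, and protein was not measured here.

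Levels are CPM (counts per 1e6 counts of the library) after TMM scaling unless a sentence says otherwise, n = 4 libraries per group, errors of levels are SD, and changes are log2 values ± standard error. An adjusted p is from edgeR's quasi-likelihood test with Benjamini-Hochberg adjustment over all 21581 genes, and a gene was called where it was under 0.05. The siRNA targets were checked first. YAP1 stood at 121 ± 4.03 CPM in siCo, 18.7 ± 1.43 CPM with siYAP/TAZ#1 and 17.4 ± 1.19 CPM with siYAP/TAZ#2. WWTR1 stood at 241 ± 9.71 CPM in siCo, 32.9 ± 1.14 CPM with siYAP/TAZ#1 and 32.4 ± 2.38 CPM with siYAP/TAZ#2. Library totals ran from 29.6 to 38.3 (in units of 1e6 estimated counts), and 10 counts corresponded to 0.261 to 0.338 CPM. The library siYAP/TAZ#2 replicate 1 stood apart, with Pearson correlations of log2 CPM to its own group of 0.989 to 0.992, against 0.995 to 0.997 for all other pairs within groups. TMM factors were 0.887 to 0.944 in siCo and 0.967 to 1.10 in the treated libraries. The 11 epithelial and lung markers, KRT8 and KRT18 among them, summed to 3271 to 3631 CPM in siCo. Their sums were 3448 to 3817 CPM with siYAP/TAZ#1 and 2987 to 4326 CPM with siYAP/TAZ#2. SFTPA1 was at 0 in all 12 libraries, NKX2-1, SFTPB and SFTPC stayed under 1 CPM, and NAPSA was under 1 CPM in all siCo libraries. Leukocyte markers summed to 25.7 to 29.2 CPM in siCo and to 26.4 to 29.5 and 27.2 to 36.4 CPM in the treated groups, with PTPRC, CD3E and LYZ under 1 CPM. The 7 fibroblast and endothelial markers summed to 104 to 116 CPM in siCo, 141 to 170 CPM with siYAP/TAZ#1 and 102 to 155 CPM with siYAP/TAZ#2. In siCo and with siYAP/TAZ#1, 6 of those 7, all but COL1A1, were under 1 CPM in every library, and 5 were with siYAP/TAZ#2. Their part in the results was not tested.

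Across the 37 genes, more fell than rose with each combination, but the set split by role. With siYAP/TAZ#1, 17 fell, 8 rose and 12 were not called, while 34.9% of all tested genes were called, 18.5% lower and 16.4% higher. With siYAP/TAZ#2, 16 fell, 8 rose and 13 were not called, beside 38.2% of all genes called, 19.2% lower and 19.0% higher. The members' median change was -0.14 with siYAP/TAZ#1 and -0.12 with siYAP/TAZ#2, beside 0.02 for all genes in both comparisons. The 4 treated libraries lay wholly below the 4 siCo libraries for 17 members and wholly above for 10 with siYAP/TAZ#1, where all genes gave 20.7% and 18.0%. For siYAP/TAZ#2 these counts were 16 and 6, where all genes gave 17.7% and 17.0%. Both comparisons share the siCo libraries, so their values are set side by side and not counted as separate evidence. In bulk RNA of this kind, fewer cells in a state and less RNA per cell cannot be told apart.

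Called lower with both combinations were 13 members, 35.1% of the set, where 13.3% of all genes met that rule. They were ATF4, ATF5, 7 transporters (SLC7A5, SLC3A2, SLC7A6, SLC7A1, SLC1A5, SLC38A1 and SLC38A2), the mitochondrial folate genes SHMT2, MTHFD2 and MTHFD1L, and ALDH18A1. Called higher with both were PHGDH, PSPH, GLUL and CTH, 10.8% of the set, where 12.5% of all genes met the rule. SLC36A1 was called higher with siYAP/TAZ#1 and lower with siYAP/TAZ#2, a pattern of 0.69% of all genes. CEBPB, DDIT4, SLC6A9, ASNS, GOT1 and CBS were called with neither, as were 53.4% of all genes. The remaining 13 were called with 1 combination, 7 with siYAP/TAZ#1 and 6 with siYAP/TAZ#2. Without siYAP/TAZ#2 replicate 1 the counts were 19 lower and 9 higher for siYAP/TAZ#1, and 18 lower and 9 higher for siYAP/TAZ#2.

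**Figure D1:**
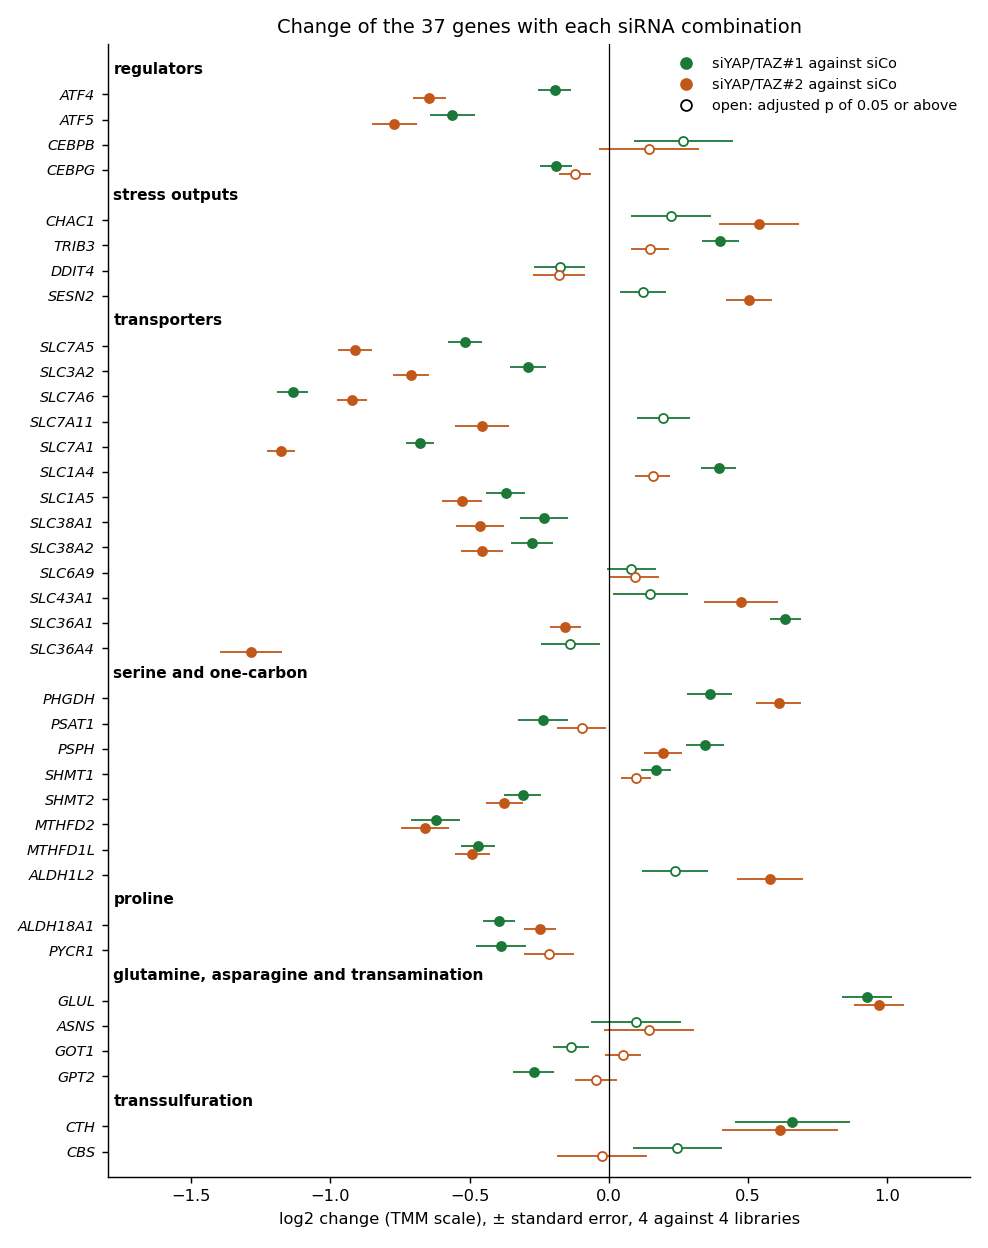
Log2 change against siCo of each of the 37 genes, grouped by role, with siYAP/TAZ#1 (green) and siYAP/TAZ#2 (orange). Points are estimates from edgeR after TMM scaling, bars are standard errors and open points have an adjusted p of 0.05 or above. Transporters reach the lowest values, SLC36A4 at -1.29 and SLC7A1 at -1.18 with siYAP/TAZ#2 and SLC7A6 at -1.14 with siYAP/TAZ#1, and GLUL the highest, at 0.93 and 0.97.

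The direction of the set as a whole depended on how libraries were scaled. Scaling by library size alone, without TMM, shifted the median of all genes from 0.02 in both comparisons to 0.20 (siYAP/TAZ#1) and 0.21 (siYAP/TAZ#2). It then gave 9 members lower and 14 higher with siYAP/TAZ#1, and 12 lower and 13 higher with siYAP/TAZ#2, and the members' medians became 0.04 and 0.07. All genes moved likewise, from 3999 lower and 3531 higher to 1905 lower and 5876 higher with siYAP/TAZ#1, and from 4144 and 4100 to 2037 and 6538 with siYAP/TAZ#2. Called lower with both combinations under both scalings were 7 members: ATF5, SLC7A5, SLC7A6, SLC7A1, SLC1A5, MTHFD2 and MTHFD1L. Called higher with both under both scalings were the same 4 as before, PHGDH, PSPH, GLUL and CTH. By limma-trend on TMM-scaled TPM, CTH was called with neither combination (adjusted p = 0.62 and 0.29). The 8 members whose fall with siYAP/TAZ#1 was not called by library size alone were ATF4, CEBPG, SLC3A2, SLC38A1, SLC38A2, PSAT1, SHMT2 and GPT2, with log2 values from -0.13 (SHMT2) to -0.01 (CEBPG). For siYAP/TAZ#2, the falls of SLC7A11, SLC38A1 and ALDH18A1 were not called, at -0.26, -0.27 and -0.06. Rises called by library size alone and not with TMM were those of CEBPB, CHAC1, SESN2, SLC7A11, SLC6A9 and ALDH1L2 with siYAP/TAZ#1, and of TRIB3, SLC1A4, SLC6A9, SHMT1 and GOT1 with siYAP/TAZ#2. With siYAP/TAZ#2 the value of SLC36A1 turned to 0.03 (adjusted p = 0.76). Changes below are therefore relative to the median gene.

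Windows around the start sites were searched for the letters that ATF4 is known to bind. RefSeq promoter windows on GRCh38.p14, 250 bases before to 50 after each start, were given for 31 of the 37 genes, and SLC7A11, ALDH1L2, SHMT2, GPT2, PYCR1 and PSPH had no entry. The letters TGATGNAA, the core of the amino acid response element that ATF4 binds with C/EBP partners, were searched on both strands. They stood in 10 of the 31, while 3.62% of all 35116 windows and 4.46% of the 27305 genes with a window held them. Each match is shown with its flanks, the motif in capitals, read 5′ to 3′ on the strand that holds it.
ASNS, chr7:97872458-97872487, minus strand: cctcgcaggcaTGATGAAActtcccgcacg
CHAC1, chr15:40953251-40953280, minus strand: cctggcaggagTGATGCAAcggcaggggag
CEBPG, chr19:33374060-33374089, plus strand: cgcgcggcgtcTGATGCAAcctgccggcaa
SLC7A1, chr13:29595663-29595692, minus strand: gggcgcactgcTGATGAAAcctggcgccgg
SLC3A2, chr11:62881725-62881748, minus strand: ggagcTGATGTAAggagtcctgca
SLC1A5, chr19:46784893-46784922, minus strand: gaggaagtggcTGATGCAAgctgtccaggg
SLC38A1, chr12:46266502-46266531, minus strand: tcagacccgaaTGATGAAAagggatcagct
SLC1A4, chr2:64989381-64989410, minus strand: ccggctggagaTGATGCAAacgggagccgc
MTHFD1L, chr6:150866346-150866375, plus strand: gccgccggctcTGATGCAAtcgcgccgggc
GOT1, chr10:99430804-99430833, plus strand: gctgccgagaaTGATGCAAccaatgcaatt

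In GENCODE v29, 6 of these 10 matches fall in untranslated exons of some transcript of the gene (ASNS, GOT1, SLC3A2, SLC7A1, CHAC1 and SLC1A5), 3 in introns (SLC1A4, SLC38A1 and CEBPG) and 1 in a coding exon (MTHFD1L). The 10 genes did not share a direction. With siYAP/TAZ#1, 6 fell, 1 rose (SLC1A4) and 3 were not called (ASNS, CHAC1 and GOT1). In the other comparison, 5 fell, 1 rose (CHAC1) and 4 were not called. Their median changes were -0.21 and -0.29. Among the 21 members with a window and no match, 8 fell and 6 rose with siYAP/TAZ#1 and 9 fell and 5 rose with siYAP/TAZ#2. The shares over all tested genes were 18.5% lower and 16.4% higher with siYAP/TAZ#1, and 19.2% and 19.0% with siYAP/TAZ#2. The falls of CEBPG and SLC38A1 with siYAP/TAZ#1 were calls lost on leaving out single libraries, as given below. A match is a description of letters in the window, and binding was not measured.

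The E-box CACGTG, the letters that MYC and TFEB family factors read, stood in 7 of the 31 genes, in 7.26% of all windows and in 8.77% of all genes with a window. They were ATF4, SLC7A5, SLC1A5, SLC36A1, SLC43A1, MTHFD1L and ALDH18A1, of which 5 fell and SLC36A1 rose with siYAP/TAZ#1, and 6 fell and SLC43A1 rose with siYAP/TAZ#2. Among the 24 members with a window and no E-box, 9 fell and 6 rose with siYAP/TAZ#1, and 8 fell and 5 rose with siYAP/TAZ#2. Of all tested genes, 18.5% were lower and 16.4% higher with siYAP/TAZ#1, and 19.2% and 19.0% with siYAP/TAZ#2. What acts on these E-boxes was not tested. The TEAD letters GGAATG, searched on both strands, stood in 3 of the 31 (ATF5, CEBPG and SLC1A5), while 14.03% of all windows and 16.7% of all genes with a window held them. The E-boxes of SLC7A5, the most abundant member, and ATF4 are printed below, in capitals. That of SLC7A5 stands in the whole 250 bases before its start on the minus strand at chr16:87869508-87869757, which overlaps no exon in GENCODE v29.
ATF4, chr22:39520466-39520493, plus strand: gaggagacggtCACGTGgtcgcggcgga
SLC7A5, 250 bases before the start: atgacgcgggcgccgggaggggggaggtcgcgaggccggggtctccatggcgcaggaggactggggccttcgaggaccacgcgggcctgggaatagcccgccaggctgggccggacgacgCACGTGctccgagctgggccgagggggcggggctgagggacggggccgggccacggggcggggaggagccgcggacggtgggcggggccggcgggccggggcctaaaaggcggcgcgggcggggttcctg

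Among the regulators, ATF4 itself and its relative ATF5 fell with both combinations. ATF4 (ENSG00000128272, chromosome 22, 39519695 to 39522685, plus strand on GRCh38) stood at 166, 169, 157 and 166 CPM in the siCo libraries, at 139, 148, 142 and 146 CPM with siYAP/TAZ#1 and at 115, 99.2, 109 and 97.5 CPM with siYAP/TAZ#2. All treated libraries were below all siCo libraries, and the siYAP/TAZ#2 libraries were below those of siYAP/TAZ#1. The change was -0.19 ± 0.06 (adjusted p = 0.018) with siYAP/TAZ#1, where ATF4 fell by 12.6%, and -0.65 ± 0.06 (adjusted p = 3.5e-07) with siYAP/TAZ#2, where it fell by 36.1%. The smaller fall was not called without the filter on low counts or without siYAP/TAZ#1 replicate 1 (-0.18 and adjusted p = 0.057 without that library), and by library size alone it was -0.02 (adjusted p = 0.82). With siYAP/TAZ#2 the value by library size alone was -0.46 (adjusted p = 5.6e-06).

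ATF5 (ENSG00000169136, chromosome 19, 49928702 to 49933935, plus strand), a stress-induced bZIP factor that is also controlled by translation, stood at 56.4, 45.6, 51.8 and 50.5 CPM in the siCo libraries, at 36.2, 35.0, 34.2 and 33.1 CPM with siYAP/TAZ#1 and at 35.0, 27.8, 28.7 and 28.2 CPM with siYAP/TAZ#2. No treated library reached the lowest siCo library. The changes were -0.56 ± 0.08 (adjusted p = 4.4e-05) and -0.77 ± 0.08 (adjusted p = 1.5e-06). Exons of ATF5 overlap those of NUP62 on the opposite strand, which averaged 252 CPM against 38.5 CPM for ATF5, and the strandedness of the counts is not given in the sources used here. CEBPG, a bZIP partner of ATF4, fell by 0.19 on the log2 scale with siYAP/TAZ#1 (adjusted p = 0.017), a call lost without siYAP/TAZ#1 replicate 4 (adjusted p = 0.067), and stood at -0.12 ± 0.06 (adjusted p = 0.12) with siYAP/TAZ#2. CEBPB, a stress and inflammation regulator, ranged from 353 to 552 CPM in siCo and from 376 to 707 CPM with siYAP/TAZ#2, the highest being replicate 1. Its groups overlapped, at 0.27 ± 0.18 and 0.14 ± 0.18, neither called. By limma-trend on unscaled log2(TPM + 1) it was called higher with both, at 0.63 (adjusted p = 0.014) and 0.56 (adjusted p = 0.016), and by library size alone with siYAP/TAZ#1, at 0.44 (adjusted p = 0.029).

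The outputs of the stress response were 4 genes, too few to set their counts apart from the shares over all genes. None of the 4 was called lower, 1 rose with siYAP/TAZ#1 and 2 rose with siYAP/TAZ#2. Of all genes, 18.5% were lower and 16.4% higher with siYAP/TAZ#1, and 19.2% and 19.0% with siYAP/TAZ#2. Library size alone gave 3 of the 4 higher with each, where it called 5876 and 6538 of 21581 genes higher. TRIB3 (ENSG00000101255, chromosome 20, 362835 to 397559, plus strand), a pseudokinase that feeds back on ATF4, stood at 202, 211, 195 and 191 CPM in the siCo libraries, at 256, 292, 245 and 263 CPM with siYAP/TAZ#1 and at 248, 212, 214 and 212 CPM with siYAP/TAZ#2. It was above every siCo library in all 8 treated libraries, by 0.40 ± 0.07 (adjusted p = 0.00021) and 0.15 ± 0.07 (adjusted p = 0.1), so the second was not called, though it was 0.33 by library size alone (adjusted p = 0.00018).

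CHAC1, an enzyme that degrades glutathione, stood at 2.88, 3.17, 2.93 and 3.16 CPM in the siCo libraries, at 3.43, 3.83, 2.77 and 4.16 CPM with siYAP/TAZ#1 and at 4.77, 3.76, 4.00 and 5.17 CPM with siYAP/TAZ#2. It rose with siYAP/TAZ#2 by 0.54 ± 0.14 (adjusted p = 0.0067), with all 4 libraries above siCo, while siYAP/TAZ#1 overlapped siCo at 0.22 ± 0.14 (adjusted p = 0.27). SESN2, a leucine sensor that restrains mTORC1, went from 25.4 ± 1.53 CPM in siCo to 36.1 ± 3.42 CPM with siYAP/TAZ#2, a rise of 0.50 ± 0.08 (adjusted p = 0.00012), and to 27.7 ± 2.48 CPM with siYAP/TAZ#1, at 0.12 ± 0.08 (adjusted p = 0.28). DDIT4, another mTORC1 inhibitor, stood at -0.18 ± 0.09 and -0.18 ± 0.09, neither called. Without siYAP/TAZ#2 replicate 1, where DDIT4 was at 153 CPM against 106 to 121 CPM in the others, it fell by 0.18 with siYAP/TAZ#1 (adjusted p = 0.017) and by 0.29 with siYAP/TAZ#2 (adjusted p = 0.00093). Its values by library size alone were -0.00 and 0.00.

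**Figure D2:**
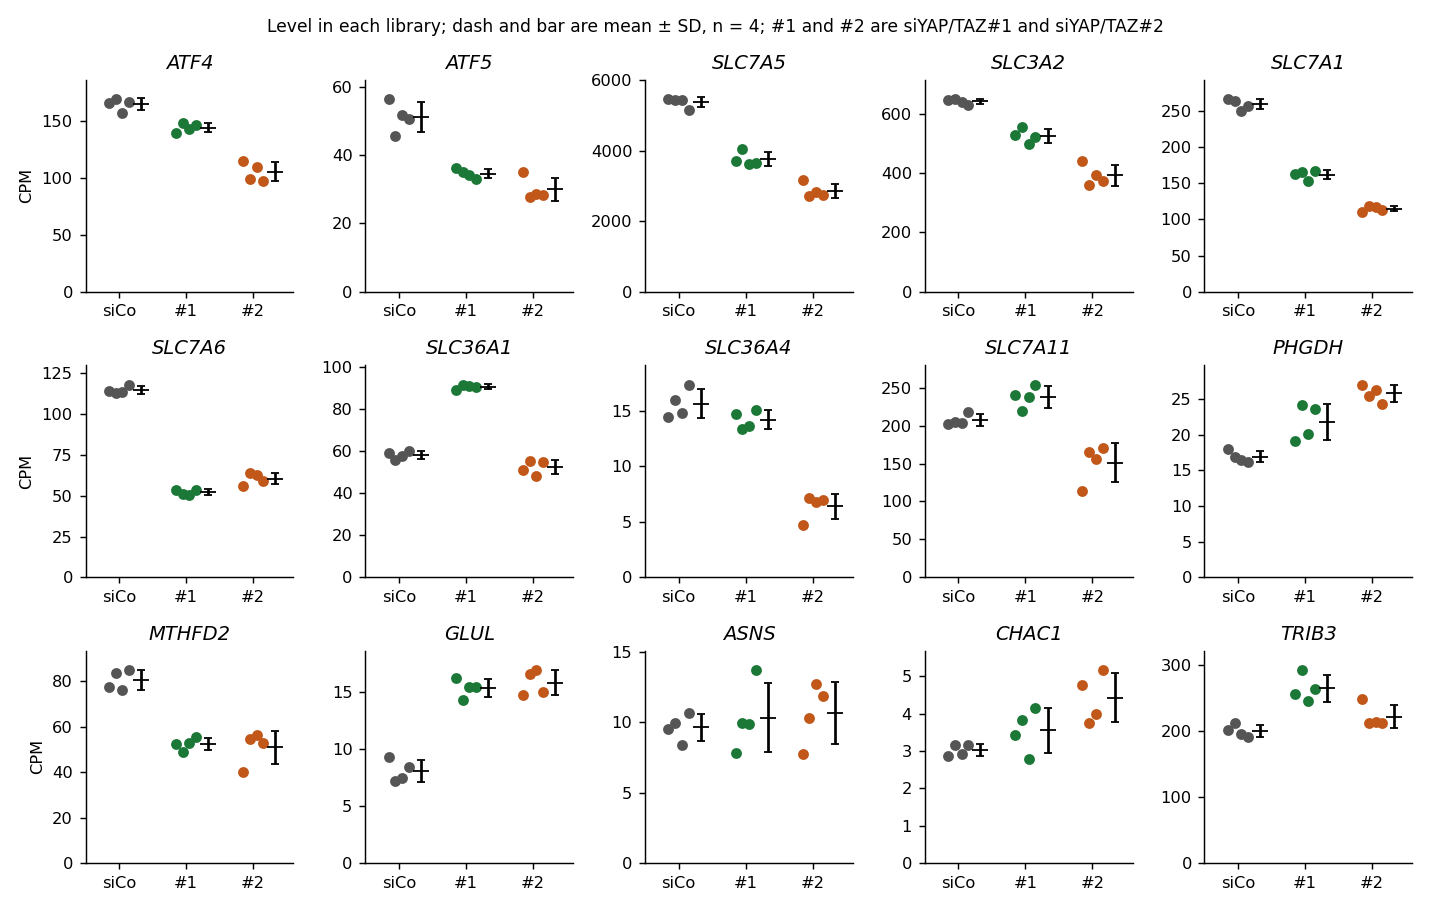
CPM after TMM scaling of 15 of the genes in each library of siCo (grey), siYAP/TAZ#1 (#1, green) and siYAP/TAZ#2 (#2, orange), with the mean ± SD of 4 libraries beside each group, each axis starting at 0. ATF4, SLC7A5, SLC3A2 and SLC7A1 are lowest with siYAP/TAZ#2 with no overlap between any 2 groups, GLUL stands near 8 CPM in siCo and between 14.3 and 17.0 CPM in treated libraries, and ASNS overlaps between all groups.

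The largest decrease with each combination was that of a transporter. Of the 13, 7 fell and 2 rose with siYAP/TAZ#1 and 10 fell and 1 rose with siYAP/TAZ#2, with medians of -0.23 and -0.46. Beside them, 18.5% of all genes were lower and 16.4% higher with siYAP/TAZ#1, and 19.2% and 19.0% with siYAP/TAZ#2. Library size alone gave 4 lower and 4 higher, and 7 lower and 3 higher, with medians of -0.06 and -0.27. Over all 21581 genes it gave 1905 lower and 5876 higher, and 2037 lower and 6538 higher. The L-type exchanger that brings leucine and other large neutral amino acids into cells is a dimer of SLC7A5 (LAT1) with SLC3A2 (4F2hc), and both partners fell. Per length, SLC7A5 was the most abundant of the 37 genes in siCo, at 714 ± 117 TPM in the authors' values, followed by SLC3A2 at 224 ± 39.5 TPM.

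SLC7A5 (ENSG00000103257, chromosome 16, 87830023 to 87869488, minus strand) stood at 5474, 5459, 5439.7 and 5161 CPM in the siCo libraries, at 3699.9, 4060.2, 3626 and 3661 CPM with siYAP/TAZ#1 and at 3162, 2719, 2819 and 2744 CPM with siYAP/TAZ#2. The 3 groups did not overlap, and siYAP/TAZ#2 was lowest. The changes were -0.52 ± 0.06 (adjusted p = 6.3e-06) and -0.91 ± 0.06 (adjusted p = 1e-08), so that SLC7A5 fell by 30.1% with the first and fell by 46.9% with the second. SLC3A2 went from 641 ± 8.62 CPM to 525 ± 23.5 CPM and 392 ± 36.1 CPM, also with no overlap, by -0.29 ± 0.06 (adjusted p = 0.0018) and -0.71 ± 0.06 (adjusted p = 2.4e-07). By library size alone the SLC3A2 value with siYAP/TAZ#1 was -0.12 (adjusted p = 0.071).

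The other partners of SLC3A2 in the set differed. SLC7A6 (ENSG00000103064, chromosome 16, 68264516 to 68301823, plus strand), which exchanges arginine and lysine for neutral amino acids, stood at 114, 113, 113 and 118 CPM in the siCo libraries, at 53.5, 51.2, 50.3 and 53.7 CPM with siYAP/TAZ#1 and at 56.3, 63.9, 62.6 and 59.2 CPM with siYAP/TAZ#2. Every treated library was at or below 63.9 CPM and every siCo library at or above 113 CPM. It fell by 54.5% with siYAP/TAZ#1, -1.14 ± 0.05 (adjusted p = 3.3e-10), and by 47.2% with siYAP/TAZ#2, -0.92 ± 0.05 (adjusted p = 2.4e-09). SLC7A11 (xCT), which imports cystine for glutathione in exchange for glutamate, stood at 203, 205, 204 and 218 CPM in the siCo libraries, at 240.4, 219, 237 and 254 CPM with siYAP/TAZ#1 and at 114, 165, 156 and 170.4 CPM with siYAP/TAZ#2. The siYAP/TAZ#1 libraries were all above siCo, at 0.20 ± 0.10 (adjusted p = 0.13, and 0.024 at 0.37 by library size alone), and the siYAP/TAZ#2 libraries all below, at -0.46 ± 0.10 (adjusted p = 0.0013). Its lowest library was siYAP/TAZ#2 replicate 1, without which the values were 0.19 (adjusted p = 0.0033) and -0.34 (adjusted p = 4.3e-05).

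SLC7A1 (CAT1, ENSG00000139514, chromosome 13, 29509410 to 29595688, minus strand), the main importer of arginine and lysine in most cells, stood at 267, 264, 250.4 and 257 CPM in the siCo libraries, at 163, 166, 153 and 166 CPM with siYAP/TAZ#1 and at 111, 118, 117 and 113 CPM with siYAP/TAZ#2. No group overlapped another, and the order was siCo, siYAP/TAZ#1, siYAP/TAZ#2 from high to low. It fell by 37.5% and 55.8%, -0.68 ± 0.05 (adjusted p = 4.2e-08) and -1.18 ± 0.05 (adjusted p = 9e-11). SLC7A6, SLC7A1 and SLC36A4 were the members called with a log2 change of at least 1 in size against siCo, 1 of 37 with siYAP/TAZ#1 (SLC7A6) and 2 of 37 with siYAP/TAZ#2 (SLC7A1 and SLC36A4), beside 5.41% and 6.86% of all genes.

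Of 6 carriers of neutral amino acids, SLC1A5, SLC38A1 and SLC38A2 fell with both combinations, while SLC1A4 and SLC43A1 each rose with 1. SLC1A5 (ASCT2), which takes up glutamine, went from 572 ± 16.3 to 443 ± 32 and 397 ± 40.3 CPM, by -0.37 ± 0.07 (adjusted p = 0.00064) and -0.53 ± 0.07 (adjusted p = 2.1e-05). The sodium-coupled glutamine and alanine carriers SLC38A1 and SLC38A2 were lower in every treated library than in any siCo library. SLC38A1 changed by -0.23 ± 0.09 (adjusted p = 0.045) and -0.46 ± 0.09 (adjusted p = 0.00043), and its call with siYAP/TAZ#1 was lost on leaving out any 1 of 8 libraries, siCo replicate 4 giving the highest adjusted p, 0.13. SLC38A2 changed by -0.28 ± 0.07 (adjusted p = 0.0085) and -0.46 ± 0.07 (adjusted p = 0.00014). In contrast SLC1A4 (ASCT1), a carrier of alanine, serine and cysteine, rose with siYAP/TAZ#1 by 0.40 ± 0.06 (adjusted p = 0.00012) and stood at 0.16 ± 0.06 (adjusted p = 0.06) with siYAP/TAZ#2. SLC43A1 (LAT3), a facilitator of neutral amino acids, rose with siYAP/TAZ#2 from 3.50 ± 0.421 to 4.85 ± 0.753 CPM, 0.48 ± 0.13 (adjusted p = 0.0094), and stood at 0.15 with siYAP/TAZ#1. Its lowest siYAP/TAZ#2 library, at 3.91 CPM, was below its highest siCo library, at 3.95 CPM. By limma-trend on TMM-scaled log2(TPM + 1) that rise was 0.11 (adjusted p = 0.41), not called. The glycine transporter SLC6A9 was at 0.08 ± 0.09 and 0.09 ± 0.09, called with neither.

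The proton-coupled carriers SLC36A1 and SLC36A4 separated the combinations most. SLC36A1 (PAT1), which exports amino acids from lysosomes, stood at 59.1, 55.9, 57.6 and 60.2 CPM in the siCo libraries, at 88.7, 91.5, 91.0 and 90.3 CPM with siYAP/TAZ#1 and at 51.0, 55.0, 48.2 and 54.7 CPM with siYAP/TAZ#2. The siYAP/TAZ#1 libraries were far above siCo, by 0.63 ± 0.06 (adjusted p = 2.2e-07), and the siYAP/TAZ#2 libraries just below, by -0.16 ± 0.06 (adjusted p = 0.036). The second call was lost on leaving out any 1 of 6 libraries (siCo replicates 1, 3 and 4, siYAP/TAZ#1 replicates 1 and 2, and siYAP/TAZ#2 replicate 3), with adjusted p up to 0.12. SLC36A4 (PAT4, ENSG00000180773, chromosome 11, 93144171 to 93197964, minus strand), a carrier of proline and tryptophan, stood at 14.4, 15.9, 14.8 and 17.4 CPM in the siCo libraries, at 14.7, 13.4, 13.6 and 15.1 CPM with siYAP/TAZ#1 and at 4.74, 7.16, 6.74 and 6.98 CPM with siYAP/TAZ#2. The siYAP/TAZ#1 libraries overlapped siCo, at -0.14 ± 0.11 (adjusted p = 0.35), and the siYAP/TAZ#2 libraries were all at or below 7.16 CPM, at -1.29 ± 0.11 (adjusted p = 1.9e-07), so that SLC36A4 fell by 59.0%. Without siYAP/TAZ#2 replicate 1, the lowest library, that value was -1.16 (adjusted p = 3e-09).

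**Figure D3:**
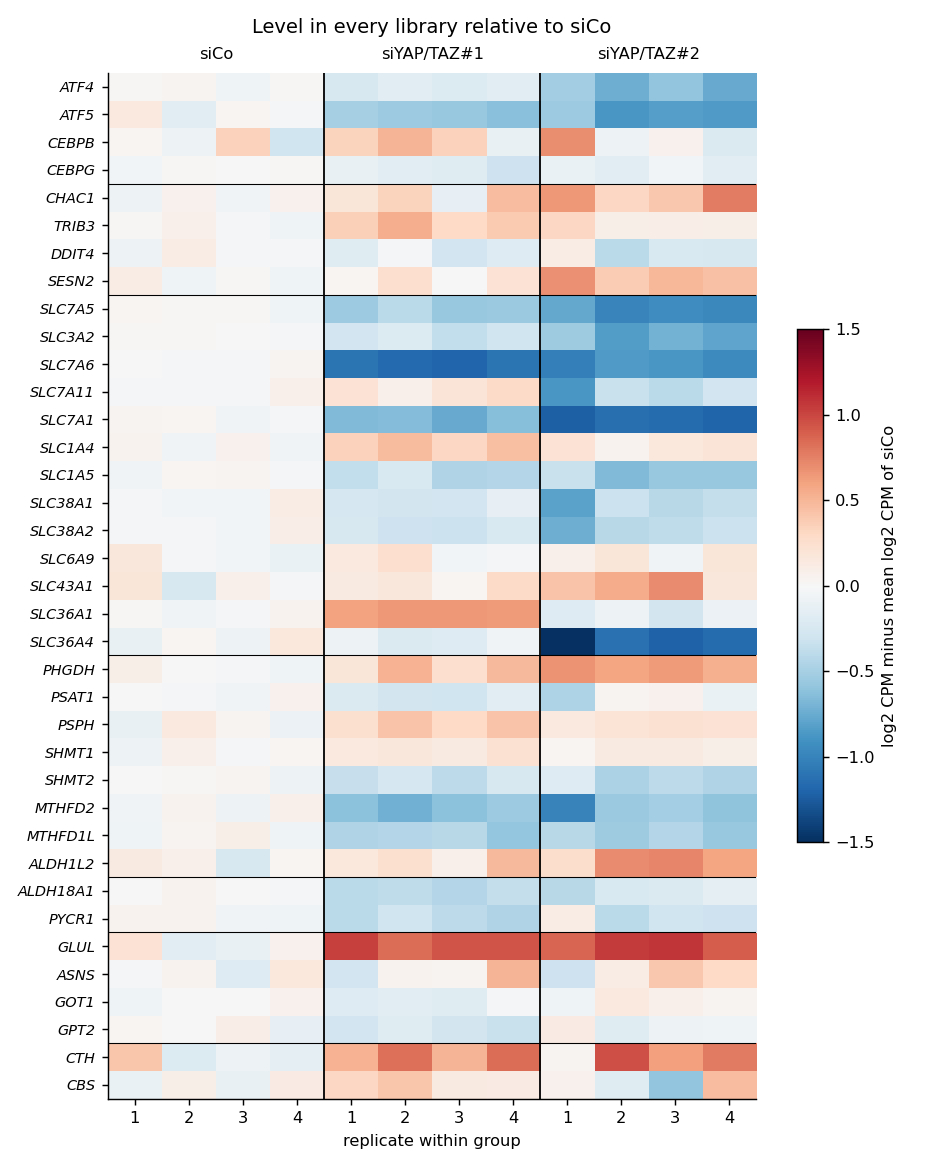
Log2 CPM of the 37 genes (rows, ordered by role, with black lines between roles) in the 12 libraries (columns), each minus the gene's mean log2 CPM in siCo, from blue (lower) to red (higher) with the scale ending at 1.5. SLC7A5, SLC3A2, SLC7A6 and SLC7A1 are blue in all 8 treated libraries and GLUL red in all 8, SLC36A1 is red with siYAP/TAZ#1 and pale blue with siYAP/TAZ#2, and siYAP/TAZ#2 replicate 1 departs from its group for CEBPB, SLC7A11 and PYCR1.

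Serine and one-carbon genes divided by step. PHGDH, PSAT1 and PSPH make serine from a glycolytic intermediate, and the first and last of them rose. PHGDH, the entry enzyme, stood at 18.0, 16.9, 16.5 and 16.2 CPM in the siCo libraries, at 19.1, 24.2, 20.1 and 23.6 CPM with siYAP/TAZ#1 and at 27.1, 25.5, 26.4 and 24.4 CPM with siYAP/TAZ#2. All treated libraries were above all siCo libraries, and siYAP/TAZ#2 above siYAP/TAZ#1, at 0.36 ± 0.08 (adjusted p = 0.0022) and 0.61 ± 0.08 (adjusted p = 1.8e-05). PSPH, the last enzyme of that route, rose by 0.35 ± 0.07 (adjusted p = 0.00075) and 0.19 ± 0.07 (adjusted p = 0.033), of which the second call was lost on leaving out siCo replicate 1 or 4 or siYAP/TAZ#2 replicate 2, 3 or 4. PSAT1, the middle enzyme, was called lower with siYAP/TAZ#1 at -0.24 ± 0.09 (adjusted p = 0.0499) and stood at -0.10 ± 0.09 (adjusted p = 0.43) with siYAP/TAZ#2. Its call was lost on leaving out any 1 of 9 libraries, with adjusted p up to 0.12, and by library size alone the values were -0.06 and 0.10.

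In mitochondria, SHMT2 splits serine into glycine and a one-carbon unit. MTHFD2 oxidises that unit, MTHFD1L then releases it as formate, and ALDH1L2 oxidises it to carbon dioxide. The first 3 of these genes fell with both combinations. MTHFD1L (ENSG00000120254, chromosome 6, 150865549 to 151101887, plus strand), which releases formate, stood at 50.2, 53.8, 55.8 and 50.2 CPM in the siCo libraries, at 38.4, 38.7, 39.4 and 35.1 CPM with siYAP/TAZ#1 and at 39.3, 36.2, 38.6 and 35.4 CPM with siYAP/TAZ#2. Every treated library was below every siCo library, by -0.47 ± 0.06 (adjusted p = 1.8e-05) and -0.49 ± 0.06 (adjusted p = 1e-05). MTHFD2 stood at 77.3, 83.6, 76.3 and 84.9 CPM in the siCo libraries, at 52.5, 48.8, 52.7 and 55.4 CPM with siYAP/TAZ#1 and at 40.3, 54.6, 56.3 and 52.7 CPM with siYAP/TAZ#2. It fell by about as much with each, -0.62 ± 0.09 (adjusted p = 3.4e-05) and -0.66 ± 0.09 (adjusted p = 1.7e-05), with siYAP/TAZ#2 replicate 1 lowest. SHMT2 fell from 147 ± 5.40 to 119 ± 5.95 and 113 ± 10.5 CPM, -0.31 ± 0.07 (adjusted p = 0.0015) and -0.38 ± 0.07 (adjusted p = 0.00026). By library size alone SHMT2 was at -0.13 (adjusted p = 0.066) and -0.19 (adjusted p = 0.0091).

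ALDH1L2, by contrast, rose with siYAP/TAZ#2, from 9.58 ± 1.03 to 14.3 ± 2.01 CPM, 0.58 ± 0.12 (adjusted p = 0.00089), and stood at 0.24 ± 0.12 (adjusted p = 0.14) with siYAP/TAZ#1. By limma-trend on TMM-scaled log2(TPM + 1) the rise with siYAP/TAZ#2 was 0.29 (adjusted p = 0.18), not called. Its exons overlap C12orf45 on the opposite strand, which averaged 38.1 CPM against 11.7 CPM for ALDH1L2. SHMT1, the cytosolic counterpart of SHMT2, rose with siYAP/TAZ#1 by 0.17 ± 0.05 (adjusted p = 0.022), a call lost without siCo replicate 1 or 3 or siYAP/TAZ#1 replicate 4 (adjusted p 0.064 to 0.084), and stood at 0.10 ± 0.05 (adjusted p = 0.17) with siYAP/TAZ#2. SHMT1 exons overlap SMCR8 on the opposite strand, at 138 against 78.8 CPM on average.

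Of the 2 proline genes, ALDH18A1 fell with both combinations and PYCR1 with siYAP/TAZ#1. ALDH18A1 (ENSG00000059573, chromosome 10, 95605929 to 95656706, minus strand), which starts proline synthesis from glutamate, stood at 117, 122, 117 and 116 CPM in the siCo libraries, at 89.5, 90.7, 87.1 and 92.0 CPM with siYAP/TAZ#1 and at 88.6, 101, 102 and 107 CPM with siYAP/TAZ#2. All 8 treated libraries were below the siCo libraries, by -0.39 ± 0.06 (adjusted p = 6.3e-05) and -0.25 ± 0.06 (adjusted p = 0.003). By library size alone the second was -0.06 (adjusted p = 0.61). PYCR1, which completes proline in mitochondria, fell with siYAP/TAZ#1, at -0.39 ± 0.09 (adjusted p = 0.0028). With siYAP/TAZ#2 it stood at 115, 80.4, 86.8 and 86.2 CPM against 102 to 111 CPM in siCo, -0.21 ± 0.09 (adjusted p = 0.072). Replicate 1 was above every siCo library and the other 3 were below them all, and without replicate 1 PYCR1 fell by 0.33 (adjusted p = 2.8e-05).

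GLUL (ENSG00000135821, chromosome 1, 182381704 to 182392206, minus strand), glutamine synthetase, had the largest rise of the 37 genes with either combination. It stood at 9.30, 7.18, 7.43 and 8.39 CPM in the siCo libraries, at 16.3, 14.3, 15.5 and 15.5 CPM with siYAP/TAZ#1 and at 14.7, 16.6, 17.0 and 15.1 CPM with siYAP/TAZ#2. The lowest treated library was above the highest siCo library. The rise was 0.93 ± 0.09 (adjusted p = 7.3e-07) and 0.97 ± 0.09 (adjusted p = 3.7e-07), or 1.90-fold and 1.96-fold. SLC1A5, SLC38A1 and SLC38A2, which import glutamine, fell with both combinations, as given above.

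ASNS, asparagine synthetase and a textbook ATF4 target, did not pass the test. It stood at 9.48, 9.92, 8.40 and 10.7 CPM in the siCo libraries, at 7.84, 9.91, 9.85 and 13.7 CPM with siYAP/TAZ#1 and at 7.70, 10.3, 12.7 and 11.8 CPM with siYAP/TAZ#2. The groups overlapped throughout, at 0.10 ± 0.16 (adjusted p = 0.69) and 0.15 ± 0.16 (adjusted p = 0.53). Its exons are shared on the same strand with the gene ENSG00000284707, which held 63.4%, 74.4% and 69.2% of the ASNS level in siCo, siYAP/TAZ#1 and siYAP/TAZ#2. With both summed, the values were 0.20 ± 0.09 (adjusted p = 0.11) and 0.20 ± 0.09 (adjusted p = 0.1). The transaminase GPT2, which makes alanine, fell with siYAP/TAZ#1, at -0.27 ± 0.07 (adjusted p = 0.0094) and stood at -0.05 ± 0.07 (adjusted p = 0.68) with siYAP/TAZ#2. GOT1, the cytosolic aspartate transaminase, stood at -0.13 ± 0.06 (adjusted p = 0.13) and 0.05 ± 0.06 (adjusted p = 0.57).

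Transsulfuration turns homocysteine into cysteine through CBS and then CTH. CTH (ENSG00000116761, chromosome 1, 70411218 to 70439851, plus strand), the least abundant member per length at 0.877 ± 0.354 TPM in siCo, stood at 1.80, 1.17, 1.28 and 1.22 CPM in the siCo libraries, at 1.93, 2.39, 1.92 and 2.42 CPM with siYAP/TAZ#1 and at 1.39, 2.62, 2.07 and 2.32 CPM with siYAP/TAZ#2. All siYAP/TAZ#1 libraries were above siCo, while siYAP/TAZ#2 replicate 1 lay within the siCo range. The rises were 0.66 ± 0.21 (adjusted p = 0.021) and 0.62 ± 0.21 (adjusted p = 0.028). By limma-trend on TMM-scaled log2(TPM + 1) they were 0.15 (adjusted p = 0.62) and 0.29 (adjusted p = 0.29), neither called. Leaving out any 1 of 5 libraries lost the first call (siCo replicate 2, 3 or 4, or siYAP/TAZ#1 replicate 2 or 4), with adjusted p up to 0.062. Any 1 of 6 lost the second (siCo replicate 2, 3 or 4, or siYAP/TAZ#2 replicate 2, 3 or 4), with adjusted p up to 0.097.

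CBS stood at 9.94, 11.4, 9.86 and 11.6 CPM in siCo, at 13.2, 14.3, 11.7 and 11.6 CPM with siYAP/TAZ#1 and, with siYAP/TAZ#2, at 11.1, 9.37, 7.09 and 14.7 CPM, and was called with neither, at 0.25 ± 0.16 and -0.02 ± 0.16. Reads of CBS are split with a near-identical copy on the same chromosome, ENSG00000274276, which held 7.11% and 6.52% of the CBS level in siCo and siYAP/TAZ#1 and 35.8% with siYAP/TAZ#2, ranging from 0.0313 to 6.26 CPM over the libraries. With both summed, the change was 0.24 ± 0.10 (adjusted p = 0.062) with siYAP/TAZ#1 and 0.32 ± 0.10 (adjusted p = 0.013) with siYAP/TAZ#2. The CBS values are therefore uncertain.

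The combinations were then compared with each other, where siCo levels do not enter the difference itself. The siCo libraries still enter the filter, the scaling and the estimate of the spread, and so the adjusted p. In siYAP/TAZ#2 minus siYAP/TAZ#1, 9 members were lower, 3 higher and 25 not called, where 6.92% of all genes were lower and 8.2% higher. The members' median difference was -0.04, beside 0.01 for all genes. ATF4 differed by -0.45 ± 0.06 (adjusted p = 4.5e-05), SLC7A5 by -0.39 ± 0.06 (adjusted p = 0.00023), SLC3A2 by -0.42 ± 0.06 (adjusted p = 0.00017) and SLC7A1 by -0.50 ± 0.05 (adjusted p = 2.9e-06), all lower with siYAP/TAZ#2. SLC36A4 and SLC36A1 had the largest differences of the set, -1.15 ± 0.11 (adjusted p = 1.7e-06) and -0.79 ± 0.06 (adjusted p = 3.6e-08), and SLC7A11 followed at -0.65 ± 0.10 (adjusted p = 0.00015). SLC36A4 was the only member past a log2 difference of 1 in size, as were 1.33% of all genes. TRIB3 and SLC1A4, which rose with siYAP/TAZ#1, were lower with siYAP/TAZ#2 than with siYAP/TAZ#1 by -0.25 ± 0.07 (adjusted p = 0.017) and -0.24 ± 0.06 (adjusted p = 0.016).

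Higher with siYAP/TAZ#2 were SESN2 at 0.38 ± 0.08 (adjusted p = 0.0034), SLC7A6 at 0.21 ± 0.05 (adjusted p = 0.013) and PHGDH at 0.25 ± 0.08 (adjusted p = 0.048). The calls of TRIB3 and SLC1A4 were each lost on leaving out any 1 of 3 libraries, that of PHGDH any 1 of 6 and that of SLC7A6 on leaving out siYAP/TAZ#1 replicate 3. MTHFD2, MTHFD1L and GLUL differed by -0.04 ± 0.09, -0.02 ± 0.06 and 0.04 ± 0.09, none called. No overlap between the combinations' libraries was seen for 11 members lower and 4 higher, where all genes gave 8.91% and 9.31%. Without siYAP/TAZ#2 replicate 1, 11 were lower and 7 higher, and ATF5 and SLC1A5 joined the lower ones and PSAT1, ALDH1L2, ALDH18A1 and GOT1 the higher ones.

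**Figure D4:**
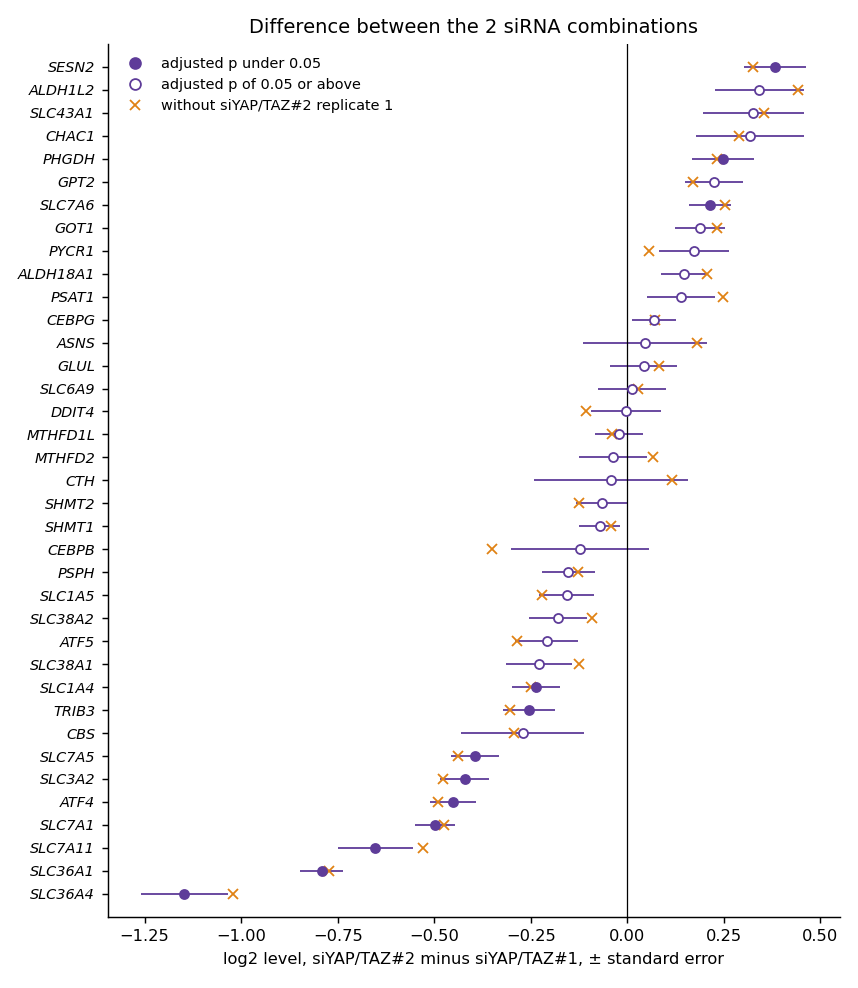
Log2 difference of siYAP/TAZ#2 minus siYAP/TAZ#1 for the 37 genes, sorted, with standard errors. Filled points have an adjusted p under 0.05, open points do not, and crosses give the estimate without siYAP/TAZ#2 replicate 1. SLC36A4 at -1.15, SLC36A1 at -0.79 and SLC7A11 at -0.65 are farthest below 0 and SESN2 at 0.38 is farthest above.

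Other genes of the pathway were read from lists chosen by function. Their counts are to be read beside those of all tested genes. With TMM, 18.5% of all genes were lower and 16.4% higher with siYAP/TAZ#1, and 19.2% and 19.0% with siYAP/TAZ#2. Library size alone called 1905 of 21581 genes lower and 5876 higher with siYAP/TAZ#1, and 2037 and 6538 with siYAP/TAZ#2. Of 20 cytosolic aminoacyl-tRNA synthetases, which charge tRNAs and include many ATF4 targets, 14 fell and 2 rose with siYAP/TAZ#1, and 10 fell, 1 rose and 9 were not called with siYAP/TAZ#2, with medians of -0.26 and -0.18. Library size alone gave 2 and 2, and 3 and 4. The tyrosyl enzyme YARS1 fell from 113 ± 3.80 to 75.8 ± 2.21 and 72.8 ± 0.694 CPM, -0.57 ± 0.05 (adjusted p = 1.8e-07) and -0.63 ± 0.05 (adjusted p = 5.1e-08). KARS1 and MARS1, the lysyl and methionyl enzymes, fell, with changes of -0.36 ± 0.06 (adjusted p = 0.0001) and -0.28 ± 0.05 (adjusted p = 0.00021) with siYAP/TAZ#1 and of -0.39 ± 0.06 (adjusted p = 4.7e-05) and -0.31 ± 0.05 (adjusted p = 8.6e-05) with siYAP/TAZ#2.

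Of 12 eIF2α kinases, phosphatase subunits and partners of ATF4, 5 fell and 2 rose with siYAP/TAZ#1 and 5 fell and 1 rose with siYAP/TAZ#2. Library size alone gave 3 and 4, and 2 and 3. PPP1R15A (GADD34), an ATF4-induced subunit that restores translation, fell, with changes of -0.57 ± 0.08 (adjusted p = 5.3e-05) and -0.77 ± 0.08 (adjusted p = 2.2e-06), and its constitutive counterpart PPP1R15B fell with changes of -0.47 ± 0.06 (adjusted p = 2e-05) and -0.34 ± 0.06 (adjusted p = 0.00038). GCN1, the activator of the kinase that senses uncharged tRNA, fell, with changes of -0.32 ± 0.05 (adjusted p = 4.7e-05) and -0.30 ± 0.05 (adjusted p = 7.7e-05). ATF3, a stress-induced bZIP factor, rose with siYAP/TAZ#1 by 0.45 ± 0.15 (adjusted p = 0.024) and stood at 0.27 ± 0.15 (adjusted p = 0.17) with siYAP/TAZ#2. DDIT3 (CHOP), the pro-apoptotic partner of ATF4, stood at 0.12 ± 0.07 (adjusted p = 0.25) and -0.03 ± 0.07 (adjusted p = 0.81), called with neither.

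Among other folate and one-carbon enzymes, 10 of 17 fell and 1 rose with siYAP/TAZ#1, and 8 fell, none rose and 9 were not called with siYAP/TAZ#2, while library size alone gave 4 and 2, and 2 and none. GCSH and GLDC, of the glycine cleavage system, fell, with changes of -0.50 and -0.87 with siYAP/TAZ#1 and of -0.66 and -0.25 with siYAP/TAZ#2 (adjusted p up to 0.01). TYMS, thymidylate synthase, fell, with changes of -0.60 ± 0.07 (adjusted p = 3.4e-06) and -0.37 ± 0.07 (adjusted p = 0.00033). Among 13 of 14 listed glutamine, glutamate, aspartate and proline enzymes that were tested, 6 fell and 3 rose in each comparison, and library size alone gave 2 and 4, and 4 and 6. The first enzymes of proline and hydroxyproline breakdown rose: PRODH from 14.7 ± 0.619 to 26.8 ± 1.31 and 32 ± 5.46 CPM, 0.87 ± 0.10 (adjusted p = 3.5e-06) and 1.12 ± 0.10 (adjusted p = 1.7e-07), and PRODH2 from 0.720 ± 0.147 to 2.66 ± 0.436 and 5.93 ± 0.719 CPM, 1.87 ± 0.18 (adjusted p = 7.5e-07) and 3.03 ± 0.18 (adjusted p = 1.9e-09).

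With TMM, other amino acid transporters leaned the other way from those in the set. Of 17 tested among 21 listed, 3 fell and 7 rose with siYAP/TAZ#1 and 4 fell and 6 rose with siYAP/TAZ#2. Library size alone gave 2 and 10, and 2 and 8, where all genes also had more higher than lower calls. SLC7A7, which like SLC7A6 pairs with SLC3A2 to exchange cationic for neutral amino acids, rose from 3.58 ± 0.271 to 6.57 ± 0.554 and 9.24 ± 0.818 CPM, 0.88 ± 0.10 (adjusted p = 5.8e-06) and 1.37 ± 0.10 (adjusted p = 3.2e-08). The mitochondrial carriers SLC25A32 (folate) and SLC25A22 (glutamate) fell, with changes of -0.94 ± 0.07 (adjusted p = 2e-08) and -0.70 ± 0.07 (adjusted p = 7.7e-07) with siYAP/TAZ#1, and of -0.53 ± 0.07 (adjusted p = 7.9e-06) and -0.46 ± 0.07 (adjusted p = 5.4e-05) with siYAP/TAZ#2.

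Of 24 genes of amino acid sensing upstream of mTORC1, 2 fell and 7 rose with siYAP/TAZ#1 and 5 fell and 7 rose with siYAP/TAZ#2, while library size alone gave 1 and 14, and 3 and 15. Of all genes, TMM called 18.5% lower and 16.4% higher with siYAP/TAZ#1, and 19.2% and 19.0% with siYAP/TAZ#2. All genes likewise shifted toward higher calls by library size alone. SEH1L, a GATOR2 subunit that also serves in nuclear pores, fell, with changes of -1.85 ± 0.09 (adjusted p = 4e-10) and -0.73 ± 0.09 (adjusted p = 5.2e-06), and RRAGC, a Rag GTPase, rose by 0.73 ± 0.09 (adjusted p = 1.5e-05) and 0.71 ± 0.09 (adjusted p = 1.7e-05). CASTOR2, of the arginine-sensing CASTOR pair, rose by 0.80 ± 0.06 (adjusted p = 6.6e-08) and 0.33 ± 0.06 (adjusted p = 0.0005). Of 20 ER chaperones and other arms of the unfolded protein response, 3 fell and 7 rose with siYAP/TAZ#1 and 4 fell and 2 rose with siYAP/TAZ#2, and library size alone gave 2 and 11, and 2 and 6. HSPA5 (BiP), the main ER chaperone, fell, with changes of -0.80 ± 0.05 (adjusted p = 5.8e-09) and -0.13 ± 0.05 (adjusted p = 0.046), EDEM1, which aids the degradation of misfolded glycoproteins, fell with changes of -1.48 ± 0.06 (adjusted p = 2e-11) and -0.42 ± 0.05 (adjusted p = 1.3e-05), and ERN1 (IRE1α), an ER stress sensor, rose by 1.13 ± 0.07 (adjusted p = 3.4e-09) and 0.64 ± 0.07 (adjusted p = 1.4e-06).

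**Figure D5:**
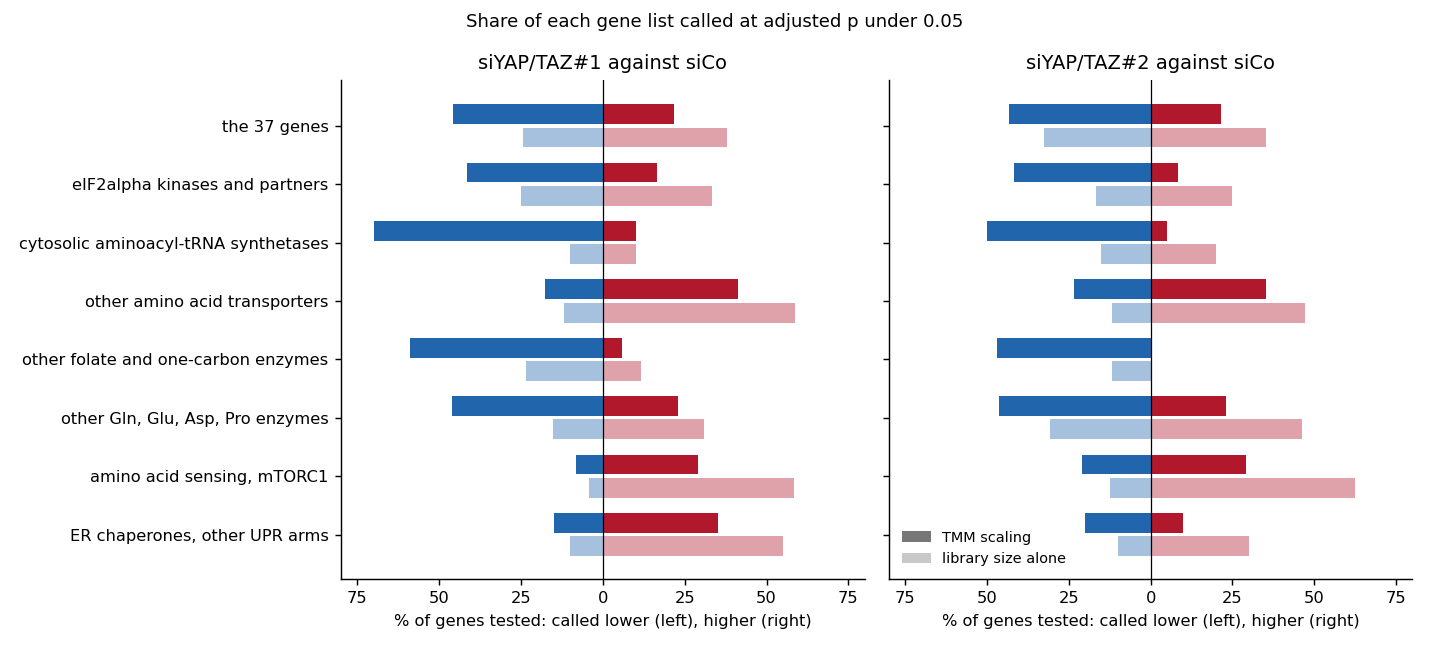
Share of the tested genes of each list called lower (blue, to the left) and higher (red, to the right) against siCo, for siYAP/TAZ#1 (left panel) and siYAP/TAZ#2 (right panel), with TMM scaling (full colour) and library size alone (pale). With TMM, 14 of 20 tRNA synthetases were lower with siYAP/TAZ#1 and 2 of 20 with library size alone. Other amino acid transporters have more higher than lower calls in every bar. By library size alone all genes do too, at 5876 higher against 1905 lower with siYAP/TAZ#1 and 6538 against 2037 with siYAP/TAZ#2.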

How the data were processed

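RNA sequencing of 12 A549 libraries was used, 4 in each of 3 groups taken from the sample titles. Per the labels' protocols, cells were lysed for total RNA 24 hours after they were transfected. The authors deposited estimated counts per gene without further scaling, and a second table of TPM values that the authors made per library. Trim Galore 0.6.4, kallisto 0.4.6 and the build GRCh38.p13 are named in the submitters' processing notes, without a role. Strandedness and the summing of transcripts to genes are not given in the sources used here.

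After rounding to whole numbers, the estimated counts went into edgeR 4.0.16 under R 4.3.3 (TMM, filterByExpr, quasi-likelihood F test, group as the only term over all 12 libraries, Benjamini-Hochberg over 21581 genes, calls at adjusted p under 0.05). The fit was tested on simulated data. P-values measure the spread between these libraries, and what separated the replicate cultures is not given. The alternatives were library size alone, RLE factors, no low-count filter, DESeq2 1.42.0, limma-trend of limma 3.58.1 on log2(TPM + 1) and log2(TPM + 0.1), only the 2 groups compared, a replicate block and each library left out. Added after seeing the data were TMM-scaled TPM and the sums of CBS and of ASNS with the gene sharing their sequence.

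The members, lists and tests were chosen with earlier results of these data known, so lists are described by counts and medians only. Every member is named. Values in every library are given for ATF4, for the member of each role with the lowest p in the mean of both combinations, and for members called with a log2 change of at least 1 in size. For some other members they are given by a choice made after their values were seen. From each other list up to 3 called genes of lowest p are named, with ATF3, DDIT3 and PPP1R15A. A gene that this rule would name is not reported here. Gene positions are from GENCODE v29 on GRCh38, 1-based, and promoters from RefSeq on GRCh38.p14.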

Additional observations from a re-analysis of the deposited data

Results flagged for a closer look

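In 8 of 111 groups of 4 libraries (37 genes in 3 groups), 1 library lay farther from the rest than Dixon's 95% limit for the gap divided by the range, where chance gives about 5%. Of these, 4 were in siCo replicate 4, 3 in siYAP/TAZ#2 replicate 1 and 1 in siCo replicate 1. In siCo replicate 4, SLC7A5 was lowest (ratio 0.893, 5161 CPM), and SLC7A11 (0.877, 218 CPM), SLC38A1 (0.897, 431 CPM) and SLC38A2 (0.900, 299 CPM) were highest. In siYAP/TAZ#2 replicate 1, ATF5 (0.863, 35.0 CPM) and TRIB3 (0.954, 248 CPM) were highest and SLC36A4 (0.855, 4.74 CPM) was lowest. In siCo replicate 1, CEBPG was lowest (0.869, 49.5 CPM).

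The effect of the combinations differed by the test of siYAP/TAZ#2 against siYAP/TAZ#1 for 12 genes. Lower with siYAP/TAZ#2 were SLC36A4 at -1.15, SLC36A1 at -0.79, SLC7A11 at -0.65, SLC7A1 at -0.50, ATF4 at -0.45, SLC3A2 at -0.42, SLC7A5 at -0.39, TRIB3 at -0.25 and SLC1A4 at -0.24. Higher were SESN2 at 0.38, PHGDH at 0.25 and SLC7A6 at 0.21. All are log2 differences, and their adjusted p values stand in the comparison of the combinations.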

How the results depend on the processing

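With unscaled TPM, limma-trend called fewer genes: with pseudocounts of 1 and 0.1, 1892 and 2309 with siYAP/TAZ#1, 3717 and 4067 with siYAP/TAZ#2, and 117 and 118 between the combinations, where edgeR called 7530, 8244 and 3262. Members called were then 6 and 8, 8 and 8, and 0 and 0, of which 0 and 1, 1 and 1, and 0 and 0 were lower, and 0 and 0 were higher between the combinations. The median of all genes with a pseudocount of 1 was 0.19 and 0.24, a shift like that of library size alone, which gave 9 members lower and 14 higher with siYAP/TAZ#1 and 13 higher with siYAP/TAZ#2. At pseudocounts of 1 and 0.1, some values of members that edgeR called changed sign. With siYAP/TAZ#1 they were those of ATF4 (0.17 and 0.17), CEBPG (0.13 and 0.14), SLC3A2 (0.0895 and 0.0898), SLC38A1 (0.11 and 0.11), SLC38A2 (0.0646 and 0.0651), PSAT1 (0.14 and 0.14), SHMT2 (0.0631 and 0.064) and GPT2 (0.13 and 0.15). With siYAP/TAZ#2 they were those of SLC7A11 (0.058 and 0.058), SLC38A1 (0.0121 and 0.0108), SLC36A1 (0.25 and 0.27, and 0.0323 by library size alone), SHMT2 (0.0929 and 0.0943) and ALDH18A1 (0.20 and 0.20), none of them called. Among members that edgeR did not call, DDIT4, SLC36A4 and GOT1 changed sign with siYAP/TAZ#1. CEBPG, DDIT4, PSAT1, PYCR1, GPT2 and CBS did with siYAP/TAZ#2. TMM-scaled TPM kept the side of the threshold of 32 of 37 members against siCo with each combination. It gave 5 members higher with siYAP/TAZ#2 and 1722 genes called between the combinations. No value called in either fit changed sign. Values called in neither fit did for SLC43A1 with siYAP/TAZ#1 (-0.15) and for GOT1 (-0.0025), GPT2 (0.03) and CBS (0.14) with siYAP/TAZ#2. The CBS value with siYAP/TAZ#2 became 0.32 when summed with its copy. DESeq2 called 6 members higher between the combinations, where edgeR called 3, and changed no call against siCo, as RLE factors did not. Without the filter on low counts, 13 members were lower and 10 higher with siYAP/TAZ#1 and 15 lower and 8 higher with siYAP/TAZ#2, and fits of only the 2 groups compared called 29 and 21 members. The falls of ATF4, CEBPG, SLC38A1 and PSAT1 with siYAP/TAZ#1 and of SLC36A1 with siYAP/TAZ#2 were not called without the filter, nor were SLC36A1, PSPH and CTH with siYAP/TAZ#2 in the fit of 2 groups. The cause was not tested.

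On leaving out each library in turn, genes called ranged from 6595 to 9174, 7430 to 9507 and 2541 to 5127 for siYAP/TAZ#1, siYAP/TAZ#2 and their difference. Members called ranged from 21 to 28, 21 to 27 and 10 to 18, with 14 to 19, 15 to 18 and 7 to 11 lower and 6 to 9, 6 to 9 and 1 to 7 higher. The highest counts between the combinations came without siYAP/TAZ#2 replicate 1.

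Same-numbered libraries did not all deviate together: 4 of 12 pairs had a correlation above 0.1 (range -0.295 to 0.385), among them all 3 pairs of replicate 4 (0.309 to 0.385), and 6 of 12 libraries correlated best with their own number. With a replicate block, 7621, 8266 and 3266 genes and 24, 25 and 12 members were called, 16, 17 and 10 of them lower. Among the members, standard errors with siYAP/TAZ#1 were largest for CTH (0.21), CEBPB (0.18), ASNS (0.16) and CBS (0.16), before CHAC1 (0.14). CTH was the least abundant per length, while CEBPB averaged 441 CPM in siCo.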
